A study of Mus musculus with 18 samples.

Results

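Cell cycle and DNA replication genes were followed through fasting in mouse liver nuclei, as a set of 41 genes taken by symbol from a table of 20105 genes. Of the 41 genes, 24 act at the G1/S transition and in DNA replication and 17 act in S/G2 phase and mitosis. The question put to them was whether the replication genes and the mitotic genes moved alike when mice were fasted, in hepatocyte nuclei and in the other nuclei of the liver.

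A dividing cell passes from G1 phase into S phase, copies its DNA, and after G2 phase separates the chromosomes in mitosis. D-type and E-type cyclins switch on the kinases that inactivate the retinoblastoma protein and release E2F transcription factors, which drive genes of DNA replication. Later genes of G2 phase and mitosis are held down in resting cells by the DREAM complex, which binds promoter elements named CHR, often near CCAAT boxes. Most hepatocytes of the adult liver are at rest and many are polyploid, and liver also holds endothelial cells, Kupffer cells, stellate cells and lymphocytes.

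The mice were female and of the HEP-INTACT line, in which a tag on hepatocyte nuclei lets them be pulled from a nuclear suspension by immunoprecipitation (IP). The promoter that drives the tag and the age of the mice are not given in the sources used here. There were 3 mice fed ad libitum and 3 mice fasted for 16 h from ZT12, the start of the active phase, and both were killed at the same time of day. Each mouse gave 3 libraries of nuclear RNA, from the IP of fresh liver (fresh IP), from the nuclei left behind by that IP (supernatant) and from the IP of frozen liver (frozen IP), so that 18 libraries form 6 groups of 3. Total counts ran from 13828945 to 54434263 per library. Replicates are mice, and the fed and the fasted mice are different animals.

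The labelled cell type was checked against marker genes. The summed level of 15 hepatocyte markers was 16662 to 24399 CPM (read counts scaled to the size of the library) in fed fresh IP libraries and 23550 to 32252 CPM in fasted ones. In the supernatant the same sum was 632 to 1094 CPM in fed and 1031 to 1687 CPM in fasted mice. Summed lymphocyte markers were 8.14 to 16.1 CPM in fresh IP and 2953 to 4009 CPM in supernatant of fed mice. No marker of hepatocytes, endothelial cells, Kupffer cells, stellate cells or lymphocytes was at 0 across a group. These libraries are bulk samples, so fewer cells of a type and less RNA per cell cannot be told apart.

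The promoters of 4 members are shown because the 2 sets of genes differ in how often they hold certain short sequence words there. Each line gives the 250 bases before the start of transcription, 5′ to 3′ on the strand of the gene, from the RefSeq table on GRCm38.p6. Capitals mark matches to the words searched on both strands.
Mcm5 (chr8:75109259-75109508, plus strand): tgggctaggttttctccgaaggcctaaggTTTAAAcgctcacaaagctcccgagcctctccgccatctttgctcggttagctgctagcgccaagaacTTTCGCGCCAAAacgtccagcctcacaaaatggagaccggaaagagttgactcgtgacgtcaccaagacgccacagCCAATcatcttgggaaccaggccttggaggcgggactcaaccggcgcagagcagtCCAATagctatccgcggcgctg
Hells (chr19:38930740-38930989, plus strand): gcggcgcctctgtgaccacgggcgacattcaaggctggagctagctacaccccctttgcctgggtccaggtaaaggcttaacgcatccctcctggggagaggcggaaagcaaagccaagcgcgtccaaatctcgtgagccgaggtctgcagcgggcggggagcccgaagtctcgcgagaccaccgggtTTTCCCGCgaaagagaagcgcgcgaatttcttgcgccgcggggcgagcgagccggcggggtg
Mki67 (chr7:135716380-135716629, minus strand): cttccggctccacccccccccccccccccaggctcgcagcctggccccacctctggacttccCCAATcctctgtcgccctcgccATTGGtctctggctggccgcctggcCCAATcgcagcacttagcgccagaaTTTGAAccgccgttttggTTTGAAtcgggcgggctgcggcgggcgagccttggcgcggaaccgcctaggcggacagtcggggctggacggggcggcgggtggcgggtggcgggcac
Ccnb2 (chr9:70421555-70421804, minus strand): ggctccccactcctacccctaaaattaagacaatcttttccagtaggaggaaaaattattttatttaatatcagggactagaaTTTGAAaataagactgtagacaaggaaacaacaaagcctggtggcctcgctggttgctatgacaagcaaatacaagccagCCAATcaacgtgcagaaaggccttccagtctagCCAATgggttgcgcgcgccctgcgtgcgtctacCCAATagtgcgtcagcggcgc

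The words were the E2F words TTTCCCGC, TTTCGCGC, TTTGCCGC and TTTGGCGC, the CHR words TTTGAA and TTTAAA, and CCAAT. In Mcm5 an E2F word lies 153 bases before the start and overlaps another on the opposite strand, and Hells holds an E2F word 62 bases before its start. In Mki67 the word TTTGAA lies 116 and 98 bases before the start, and in Ccnb2 it lies 167 bases before the start, with CCAAT at 3 places in each of these windows. Ccnb2 holds another TTTGAA at position 5 after the start, outside the printed bases. RefSeq promoters were found for 34 of the 41 members, with 38 windows of 300 bases that reach from 250 bases before the start to 50 after it. An E2F word was in 10 of 24 windows of replication genes (41.7%), in 2 of 14 of mitotic genes (14.3%) and in 2.26% of 32851 windows of all genes. TTTGAA was in 4 of 24 windows of replication genes (16.7%), in 11 of 14 of mitotic genes (78.6%) and in 17.9% of all windows. TTTAAA was in 16.7%, 35.7% and 13.2% of the same 3 sets. CCAAT was in 17 of 24 (70.8%), in all 14 (100%) and in 37.4%. A match is a description of letters and not a measured binding site.

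Fasting lowered many replication genes in the supernatant. In the IPs some genes of both sets fell, Mki67 and Top2a foremost among those tested. In the supernatant, 18 of the 24 replication genes fell and 1, Ccnd3, rose, and 2 of the 17 mitotic genes fell, Top2a and Mki67. These counts moved with single libraries and with the tool, with 8 replication genes falling without fasted library A, 0 mitotic genes falling when any of 5 single libraries was left out, 6 without fasted library B, and 7 with DESeq2. Among all 13921 genes tested there, 3.38% rose and 2.84% fell (edgeR, adjusted p under 0.05). Fresh IP had 35 members with enough counts to test. Of the 22 replication genes among them 2 rose and 2 fell, and of the 13 mitotic genes 1 rose and 5 fell, against 12.4% rising and 12.6% falling of 12548 genes. In this fit the replication count in fresh IP was thus no higher than that of all genes in either direction. The count of falls depended on the fit. With DESeq2, 7 replication genes fell in fresh IP, beside 1971 of 12548 genes. With all 18 libraries in 1 fit, 8 fell, beside 2164 of 14446 genes. Frozen IP also had 35 testable members. There 2 replication genes rose and 6 fell, and 1 mitotic gene rose and 3 fell, against 11.0% and 11.6% of 12926 genes.

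**Figure D1:**
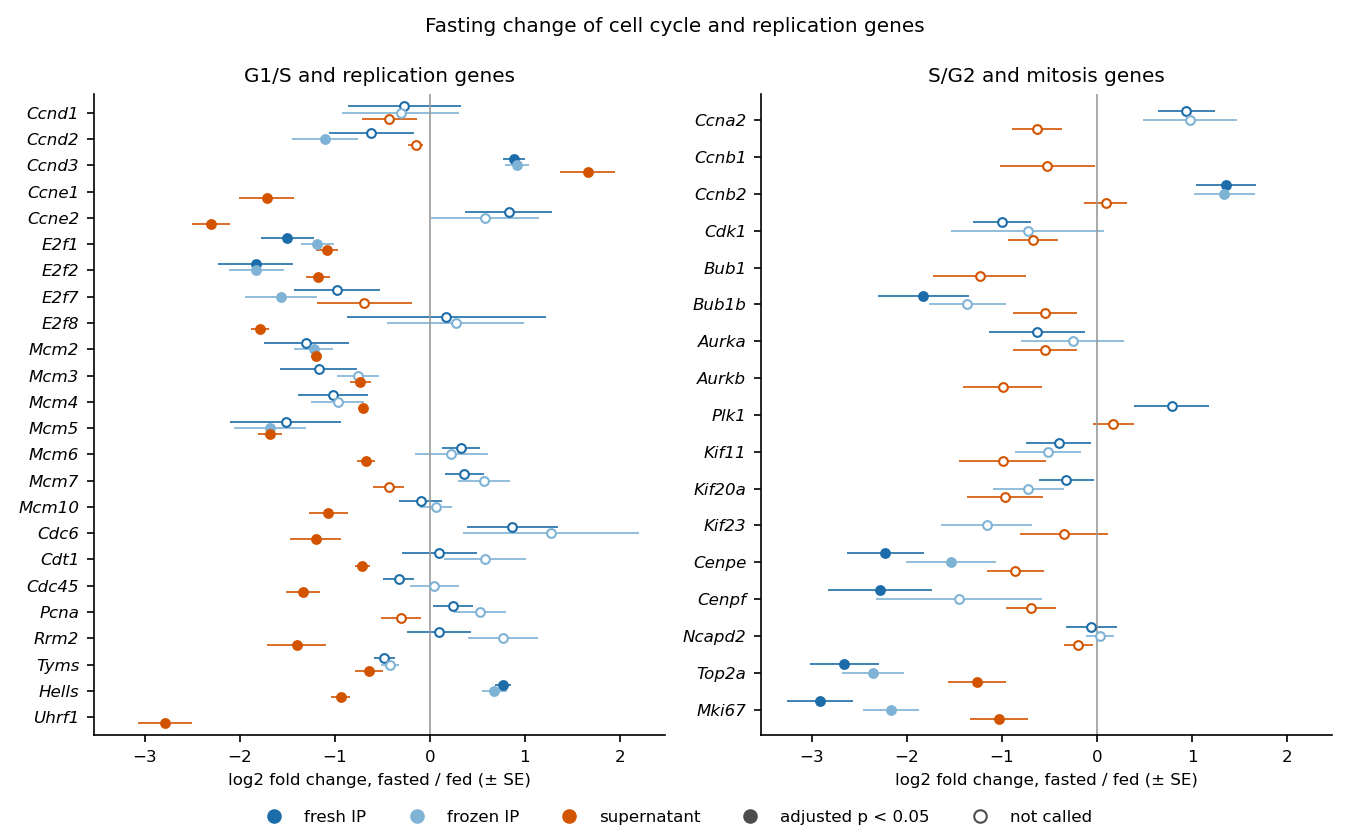
Log2 fold change of each of the 41 members with fasting (fasted minus fed, horizontal axis) in supernatant, fresh IP and frozen IP, n = 3 mice per group. Bars are the SE of the difference in log2 CPM. Filled points have an adjusted p under 0.05 and members without enough counts in an IP have no point there. In supernatant nearly all replication genes lie below 0, with Ccnd3 at 1.66 as the exception, and in both IPs Mki67 and Top2a have the lowest values of the tested members while Ccnb2 lies to the right.

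The median log2 fold change in the supernatant was -1.002 over the 24 replication genes and -0.67 over the 17 mitotic genes, with a median of 0.00 over all genes tested. In the IPs the members left untested were those with the fewest reads, so medians over all 41 were taken from a fit without the filter. In fresh IP that median was -0.19 for replication genes and -1.79 for mitotic genes. The mitotic value was that of Ccnb1, which had 3 to 4 reads per fed and 0 to 3 reads per fasted library. Aurkb had no read in fasted mice. Its bound of -2.52 lies below that median, so placing Aurkb there could not move the median. In frozen IP the medians without the filter were 0.06 and -1.17. Over the tested members alone the medians were -0.18 and -0.63 in fresh IP and 0.06 and -0.73 in frozen IP.

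Single libraries showed the same order. Relative to the fed mean, the median replication gene in the fasted fresh IP libraries stood at -0.28, -0.19 and -0.14 on the log2 scale. The median mitotic gene in those libraries stood at -1.38, -0.84 and -1.09. In frozen IP the 3 fasted libraries were at -0.16, -0.25 and 0.23 for replication genes and at -1.05, -0.41 and -1.04 for mitotic genes. In the supernatant they were at -1.14, -0.82 and -1.01 for replication genes and at -0.91, -0.30 and -0.99 for mitotic genes. In fasted library B the mitotic genes thus stood nearest to the fed level in all 3 kinds of library, and fed libraries lay between -0.25 and 0.34.

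The groups did not overlap for 20 of 24 replication genes in supernatant, 19 with all fasted mice below all fed mice and 1 above. Of 16900 genes with a read in those libraries, 12.9% were below in this way and 12.9% above. For mitotic genes there, all fasted mice were below in 6 of 17 and the groups overlapped in 11. In fresh IP all fasted mice were below in 9 and above in 2 of 24 replication genes, and below in 10 and above in 2 of 17 mitotic genes, against 18.6% below and 18.7% above of 16307 genes. In frozen IP they were below in 10 and above in 6 of 24, and below in 7 and above in 2 of 17, against 17.9% below and 3283 above of 16418 genes. The replication genes above in frozen IP were Ccnd3 and Hells, which were called, and Cdc6, Mcm7, Pcna and Rrm2, which were not.

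Marker genes of other cells moved too. In the supernatant the summed lymphocyte markers went from 2953 to 4009 CPM in fed mice to 2221 to 2552 CPM in fasted mice, with 2 of 12 markers falling and none rising. In the same libraries summed endothelial markers were 2972 to 3896 and 3646 to 4922 CPM, with 2 of 14 rising. In fresh IP summed endothelial markers were 79.9 to 153 and 42.4 to 94.3 CPM, and 1 of 14 fell. Summed lymphocyte markers in fresh IP were 8.14 to 16.1 and 5.89 to 7.72 CPM, and none of the 5 tested was called. Summed stellate markers there were 72.8 to 132 and 52.9 to 69.6 CPM, with 1 of 11 falling. In frozen IP summed endothelial markers were 224 to 318 and 133 to 195 CPM, with 1 of 14 rising and 6 falling, and 5 of 12 stellate markers fell. Summed lymphocyte markers in frozen IP were 25.5 to 72.3 and 20.03 to 23.8 CPM, with none of 8 called. The value of 72.3 CPM was that of fed library B, which also had the lowest total count of all libraries. Its summed Kupffer cell markers were 112 CPM, against 34.1 and 38.5 CPM in frozen IP fed libraries A and C. Summed levels of 8 cholangiocyte markers, higher in IP than in supernatant, were 649.6 to 678 and 270.03 to 309 CPM in fresh IP and 668 to 767 and 293 to 360.03 CPM in frozen IP. Most of that sum was Pkhd1, which fell in both IPs, while Krt7, Krt19 and Epcam were too low to test in fresh IP. The part of these changes in the results on cell cycle genes was not tested.

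In what follows the 3 values of a group are given in the order of the count table's letters A, B and C, which name the libraries, each fold change is on the log2 scale as fasted minus fed, and ± is its SE with n = 3 mice per group. Levels are CPM and are compared within a gene.

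Ccnd3 was the member that rose in all 3 kinds of library. It encodes cyclin D3, a partner of Cdk4 and Cdk6, and lies at chr17:47505051-47599688, plus strand of mm10. Supernatant held Ccnd3 at 174, 125 and 241 CPM in fed and 635, 533 and 532 CPM in fasted mice. Fresh IP held Ccnd3 at 77.8, 89.5 and 83.6 CPM in fed and 134, 156 and 168 CPM in fasted mice. Frozen IP held it at 76.4, 81.3 and 84.2 CPM in fed and 133, 147 and 177 CPM in fasted mice. Every fasted library was above every fed library of its kind. The change was 1.66 ± 0.29 (SE, edgeR adjusted p = 0.0107) in supernatant, 0.89 ± 0.11 (SE, edgeR adjusted p = 0.00309) in fresh IP and 0.92 ± 0.13 (SE, edgeR adjusted p = 0.00385) in frozen IP, and each of the 3 calls held when any 1 library was left out. Ccnd3 overlaps 358 bases (0.378%) of its span with Bysl on the opposite strand.

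The other D cyclins showed no such rise. Ccnd1, which encodes cyclin D1, was at 15.6, 18.01 and 9.83 CPM in fed and 10.5, 9.24 and 12.4 CPM in fasted mice in supernatant and at 6.85, 18.7 and 21.8 CPM in fed and 9.16, 11.9 and 17.9 CPM in fasted mice in fresh IP. Those groups overlapped, the fresh IP change was -0.27 ± 0.59 (SE, edgeR adjusted p = 0.669), and the frozen IP values also overlapped. Ccnd2, the cyclin D2 gene, was a gene of the supernatant, where it was at 39.9, 33.7 and 35.4 CPM in fed and 32.9, 31.0 and 33.8 CPM in fasted mice. Fresh IP held Ccnd2 at 1.14, 1.496 and 1.96 CPM in fed and 0.852, 1.49 and 0.559 CPM in fasted mice. Frozen IP held Ccnd2 at 2.14, 4.58 and 2.37 CPM in fed and 1.48, 1.41 and 1.21 CPM in fasted mice. Ccnd2 changed in frozen IP by -1.10 ± 0.35 (SE, edgeR adjusted p = 0.0486), a call that was lost when any of 5 single libraries was left out. Its changes of -0.62 ± 0.44 (SE, edgeR adjusted p = 0.295) in fresh IP and -0.15 ± 0.08 (SE, edgeR adjusted p = 0.383) in supernatant were not called.

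The E cyclins, which activate Cdk2 at the entry to S phase, fell in supernatant, and no fall was called in either IP. Ccne2 (chr4:11191351-11204779, plus strand) was at 2.27, 2.37 and 2.01 CPM in fed and 0.329, 0.539 and 0.466 CPM in fasted mice in supernatant. Fresh IP held Ccne2 at 1.12, 1.496 and 1.31 CPM in fed and 2.31, 1.16 and 3.42 CPM in fasted mice. Frozen IP held Ccne2 at 1.32, 1.03 and 0.993 CPM in fed and 1.28, 0.768 and 3.004 CPM in fasted mice. All fasted supernatants were below all fed ones, and the IP groups overlapped with library C highest among the fasted. The supernatant change was -2.31 ± 0.20 (SE, edgeR adjusted p = 0.00515), and the IP changes of 0.83 ± 0.46 (SE, edgeR adjusted p = 0.163) and 0.58 ± 0.57 (SE, edgeR adjusted p = 0.419) were not called. Ccne2 shares 5622 bases (41.9% of its span) with Ints8 on the opposite strand, whose fed level in fresh IP was 82.4 CPM and which changed by 0.01, 0.06 and 0.17 in fresh IP, frozen IP and supernatant.

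Ccne1 was at 1.54, 1.68 and 1.59 CPM in fed and 0.439, 0.686 and 0.319 CPM in fasted mice in supernatant, where it fell with a change of -1.72 ± 0.29 (SE, edgeR adjusted p = 0.021). Fresh IP held Ccne1 at 0.215, 0.0880 and 0.226 CPM in fed and 0.138, 0.369 and 0.526 CPM in fasted mice, from 2 to 19 reads per library. Frozen IP held Ccne1 at 0.0630, 0.158 and 0.259 CPM in fed and 0.225, 0.248 and 0.360 CPM in fasted mice. The IP counts were too low to test, and the fed and fasted groups overlapped in fresh IP. The supernatant call was lost without fed library B, fed library C or fasted library A.

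The activating factors E2f1 and E2f2 fell in all 3 kinds of library. E2f1 was at 11.5, 8.67 and 10.01 CPM in fed and 4.59, 4.76 and 4.81 CPM in fasted mice in supernatant. Fresh IP held E2f1 at 1.18, 1.54 and 1.93 CPM in fed and 0.468, 0.698 and 0.428 CPM in fasted mice. Frozen IP held E2f1 at 1.32, 0.947 and 1.27 CPM in fed and 0.601, 0.496 and 0.488 CPM in fasted mice. Fasted values lay below all fed values in each kind of library. The changes were -1.08 ± 0.12 (SE, edgeR adjusted p = 0.00862), -1.501 ± 0.28 (SE, edgeR adjusted p = 0.0169) and -1.18 ± 0.17 (SE, edgeR adjusted p = 0.0271) in supernatant, fresh IP and frozen IP. The fresh IP call was lost without fasted library A, and the frozen IP call was lost when any of 5 single libraries was left out.

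E2f2 was at 6.97, 6.50 and 7.01 CPM in fed and 3.03, 3.43 and 2.53 CPM in fasted mice in supernatant. Fresh IP held E2f2 at 1.65, 3.65 and 1.61 CPM in fed and 0.742, 0.543 and 0.592 CPM in fasted mice. Frozen IP held E2f2 at 2.11, 2.76 and 1.64 CPM in fed and 0.776, 0.471 and 0.539 CPM in fasted mice. No fasted library reached the lowest fed one of its kind. The changes were -1.18 ± 0.13 (SE, edgeR adjusted p = 0.00944), -1.83 ± 0.40 (SE, edgeR adjusted p = 0.0151) and -1.83 ± 0.29 (SE, edgeR adjusted p = 0.00878), and all 3 calls held when any 1 library was left out.

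The atypical factors E2f7 and E2f8 repress E2F targets and are known for their part in hepatocyte polyploidy. E2f8 (chr7:48866429-48881041, minus strand) was at 4.65, 5.16 and 4.74 CPM in fed and 1.29, 1.57 and 1.33 CPM in fasted mice in supernatant. Fresh IP held E2f8 at 3.44, 1.80 and 18.5 CPM in fed and 10.4, 11.2 and 5.30 CPM in fasted mice. Frozen IP held E2f8 at 4.38, 3.16 and 14.8 CPM in fed and 10.02, 11.4 and 6.42 CPM in fasted mice. The supernatant groups were wide apart, with a fall of -1.78 ± 0.10 (SE, edgeR adjusted p = 0.00294), a call lost when all 18 libraries shared 1 fit. The IP groups overlapped, with fed library C above every other library of its kind, and the IP changes were 0.17 ± 1.05 (SE, edgeR adjusted p = 0.884) and 0.27 ± 0.72 (SE, edgeR adjusted p = 0.733). E2f7 was at 11.0, 9.55 and 9.14 CPM in fed and 2.92, 5.83 and 9.598 CPM in fasted mice in supernatant. Fresh IP held E2f7 at 1.20, 1.23 and 3.16 CPM in fed and 1.02, 0.931 and 0.888 CPM in fasted mice. Frozen IP held E2f7 at 1.48, 3.23 and 2.52 CPM in fed and 0.826, 0.966 and 0.591 CPM in fasted mice. E2f7 fell in frozen IP with a change of -1.57 ± 0.38 (SE, edgeR adjusted p = 0.0203), a call lost without fed library C, fasted library A or fasted library C, and its changes of -0.69 ± 0.50 (SE, edgeR adjusted p = 0.303) and -0.98 ± 0.45 (SE, edgeR adjusted p = 0.131) in supernatant and fresh IP were not called.

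Mcm2 to Mcm7 encode the 6 subunits of the replicative helicase, and all but Mcm7 fell in supernatant. Mcm5 (chr8:75109509-75128439, plus strand), whose promoter is printed above, was at 13.5, 16.3 and 12.9 CPM in fed and 4.41, 4.78 and 4.03 CPM in fasted mice in supernatant. Fresh IP held Mcm5 at 0.902, 1.94 and 0.703 CPM in fed and 0.220, 0.330 and 0.658 CPM in fasted mice. Frozen IP held Mcm5 at 1.10, 1.97 and 0.863 CPM in fed and 0.350, 0.322 and 0.488 CPM in fasted mice. Fasted mice were below fed mice throughout. The changes were -1.68 ± 0.12 (SE, edgeR adjusted p = 0.00244) in supernatant, -1.52 ± 0.58 (SE, edgeR adjusted p = 0.0727) in fresh IP and -1.68 ± 0.38 (SE, edgeR adjusted p = 0.0243) in frozen IP, of which the fresh IP change was not called and the frozen IP call was lost without fed library A, fasted library A or fasted library B.

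Mcm2 was at 6.99, 6.11 and 6.53 CPM in fed and 2.88, 2.87 and 2.77 CPM in fasted mice in supernatant. Fresh IP held Mcm2 at 1.35, 2.77 and 0.929 CPM in fed and 0.632, 0.679 and 0.658 CPM in fasted mice. Frozen IP held Mcm2 at 1.76, 1.97 and 1.34 CPM in fed and 0.726, 0.818 and 0.591 CPM in fasted mice. The groups were apart in each kind of library. The changes were -1.19 ± 0.06 (SE, edgeR adjusted p = 0.00519), -1.30 ± 0.45 (SE, edgeR adjusted p = 0.0576) and -1.22 ± 0.21 (SE, edgeR adjusted p = 0.024), so that supernatant and frozen IP passed the test and fresh IP did not. The frozen IP call was lost when any of 4 single libraries was left out.

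Mcm3 was at 15.4, 16.0 and 14.2 CPM in fed and 7.99, 9.14 and 10.1 CPM in fasted mice in supernatant. Fresh IP held Mcm3 at 0.945, 1.89 and 1.36 CPM in fed and 0.742, 0.679 and 0.362 CPM in fasted mice. Frozen IP held Mcm3 at 1.38, 1.18 and 1.38 CPM in fed and 0.926, 0.867 and 0.565 CPM in fasted mice. Fasted values were the lower ones in all 3 kinds of library. The supernatant change of -0.73 ± 0.11 (SE, edgeR adjusted p = 0.0156) passed the test, and the IP changes did not, with adjusted p-values of 0.0626 and 0.11 from edgeR in fresh and frozen IP.

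Mcm4 was at 6.65, 7.17 and 6.89 CPM in fed and 4.35, 3.97 and 4.27 CPM in fasted mice in supernatant. Fresh IP held Mcm4 at 1.93, 2.24 and 1.41 CPM in fed and 0.825, 1.26 and 0.559 CPM in fasted mice. Frozen IP held Mcm4 at 1.67, 2.29 and 2.42 CPM in fed and 0.876, 1.46 and 0.899 CPM in fasted mice. The fasted libraries were again the lower ones without overlap. The supernatant change was -0.71 ± 0.05 (SE, edgeR adjusted p = 0.0186), and -1.02 ± 0.37 (SE, edgeR adjusted p = 0.0684) in fresh IP and -0.97 ± 0.28 (SE, edgeR adjusted p = 0.057) in frozen IP did not pass. The supernatant calls of Mcm3 and Mcm4 were lost without fed library B or fasted library A, that of Mcm4 also without fed library C or fasted library B, and both when all 18 libraries shared 1 fit.

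Mcm6 fell in supernatant and was not called in either IP. Supernatant held Mcm6 at 15.7, 18.9 and 15.4 CPM in fed and 10.2, 10.3 and 10.5 CPM in fasted mice. Fresh IP held Mcm6 at 4.29, 4.79 and 3.34 CPM in fed and 5.55, 4.23 and 5.56 CPM in fasted mice. Frozen IP held Mcm6 at 4.38, 7.57 and 3.39 CPM in fed and 6.99, 4.53 and 5.96 CPM in fasted mice. Supernatant groups were apart with a change of -0.67 ± 0.09 (SE, edgeR adjusted p = 0.0164), while the IP groups overlapped with changes of 0.33 ± 0.20 (SE, edgeR adjusted p = 0.276) and 0.23 ± 0.38 (SE, edgeR adjusted p = 0.632). The supernatant call was lost without fasted library A and when all 18 libraries shared 1 fit. Mcm7 was at 13.1, 9.44 and 12.1 CPM in fed and 7.64, 9.22 and 8.64 CPM in fasted mice in supernatant and at 8.39, 8.88 and 11.1 CPM in fed and 10.8, 10.6 and 14.9 CPM in fasted mice in fresh IP. Its changes of -0.43 ± 0.16 (SE, edgeR adjusted p = 0.134) and 0.36 ± 0.20 (SE, edgeR adjusted p = 0.2) were not called. Mcm7 holds the miRNA genes Mir25, Mir93 and Mir106b within its span.

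Cdc6 and Cdt1 load the helicase onto origins. Cdc6 was at 3.37, 2.81 and 2.58 CPM in fed and 1.27, 1.62 and 0.884 CPM in fasted mice in supernatant. Fresh IP held Cdc6 at 0.236, 0.440 and 0.301 CPM in fed and 0.770, 0.640 and 0.263 CPM in fasted mice. Frozen IP held Cdc6 at 0.315, 0 and 0.237 CPM in fed and 0.776, 0.372 and 0.462 CPM in fasted mice. Fasted supernatants were below fed ones, with a change of -1.20 ± 0.27 (SE, edgeR adjusted p = 0.0365), and the fresh IP groups overlapped with a change of 0.87 ± 0.48 (SE, edgeR adjusted p = 0.216). Cdt1 was at 4.16, 3.59 and 3.75 CPM in fed and 2.48, 2.30 and 2.18 CPM in fasted mice in supernatant. Fresh IP held Cdt1 at 0.472, 0.924 and 0.352 CPM in fed and 0.522, 0.563 and 0.691 CPM in fasted mice. Frozen IP held Cdt1 at 0.315, 0.316 and 0.496 CPM in fed and 0.3005, 0.768 and 0.693 CPM in fasted mice. Cdt1 fell in supernatant with a change of -0.71 ± 0.08 (SE, edgeR adjusted p = 0.0374), with changes of 0.10 ± 0.39 (SE, edgeR adjusted p = 0.878) and 0.58 ± 0.43 (SE, edgeR adjusted p = 0.384) in the IPs. The Cdt1 call was lost when any 1 library was left out and the Cdc6 call when any of 5 was, and both were lost when all 18 libraries shared 1 fit.

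Cdc45 and Mcm10 act when the loaded helicase is switched on. Cdc45 was at 6.19, 6.45 and 4.47 CPM in fed and 2.11, 2.48 and 2.16 CPM in fasted mice in supernatant. Fresh IP held Cdc45 at 3.24, 3.34 and 2.39 CPM in fed and 2.28, 2.52 and 2.20 CPM in fasted mice. Frozen IP held Cdc45 at 2.83, 3.94 and 2.27 CPM in fed and 2.78, 2.75 and 3.62 CPM in fasted mice. Supernatant groups were apart, with a change of -1.33 ± 0.18 (SE, edgeR adjusted p = 0.0102) that was lost without fasted library A, and IP groups overlapped with changes of -0.33 ± 0.16 (SE, edgeR adjusted p = 0.287) and 0.05 ± 0.26 (SE, edgeR adjusted p = 0.914). Mcm10 (chr2:4990724-5012791, minus strand) was at 7.12, 8.72 and 5.67 CPM in fed and 3.07, 3.90 and 3.22 CPM in fasted mice in supernatant. Fresh IP held Mcm10 at 29.8, 34.7 and 23.7 CPM in fed and 31.5, 21.7 and 28.1 CPM in fasted mice. Frozen IP held Mcm10 at 27.2, 24.5 and 22.9 CPM in fed and 29.3, 20.7 and 27.9 CPM in fasted mice. Mcm10 fell in supernatant with a change of -1.07 ± 0.21 (SE, edgeR adjusted p = 0.022), a call lost when any of 4 single libraries was left out, and the IP groups overlapped with changes of -0.09 ± 0.23 (SE, edgeR adjusted p = 0.74) and 0.06 ± 0.17 (SE, edgeR adjusted p = 0.807).

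**Figure D2:**
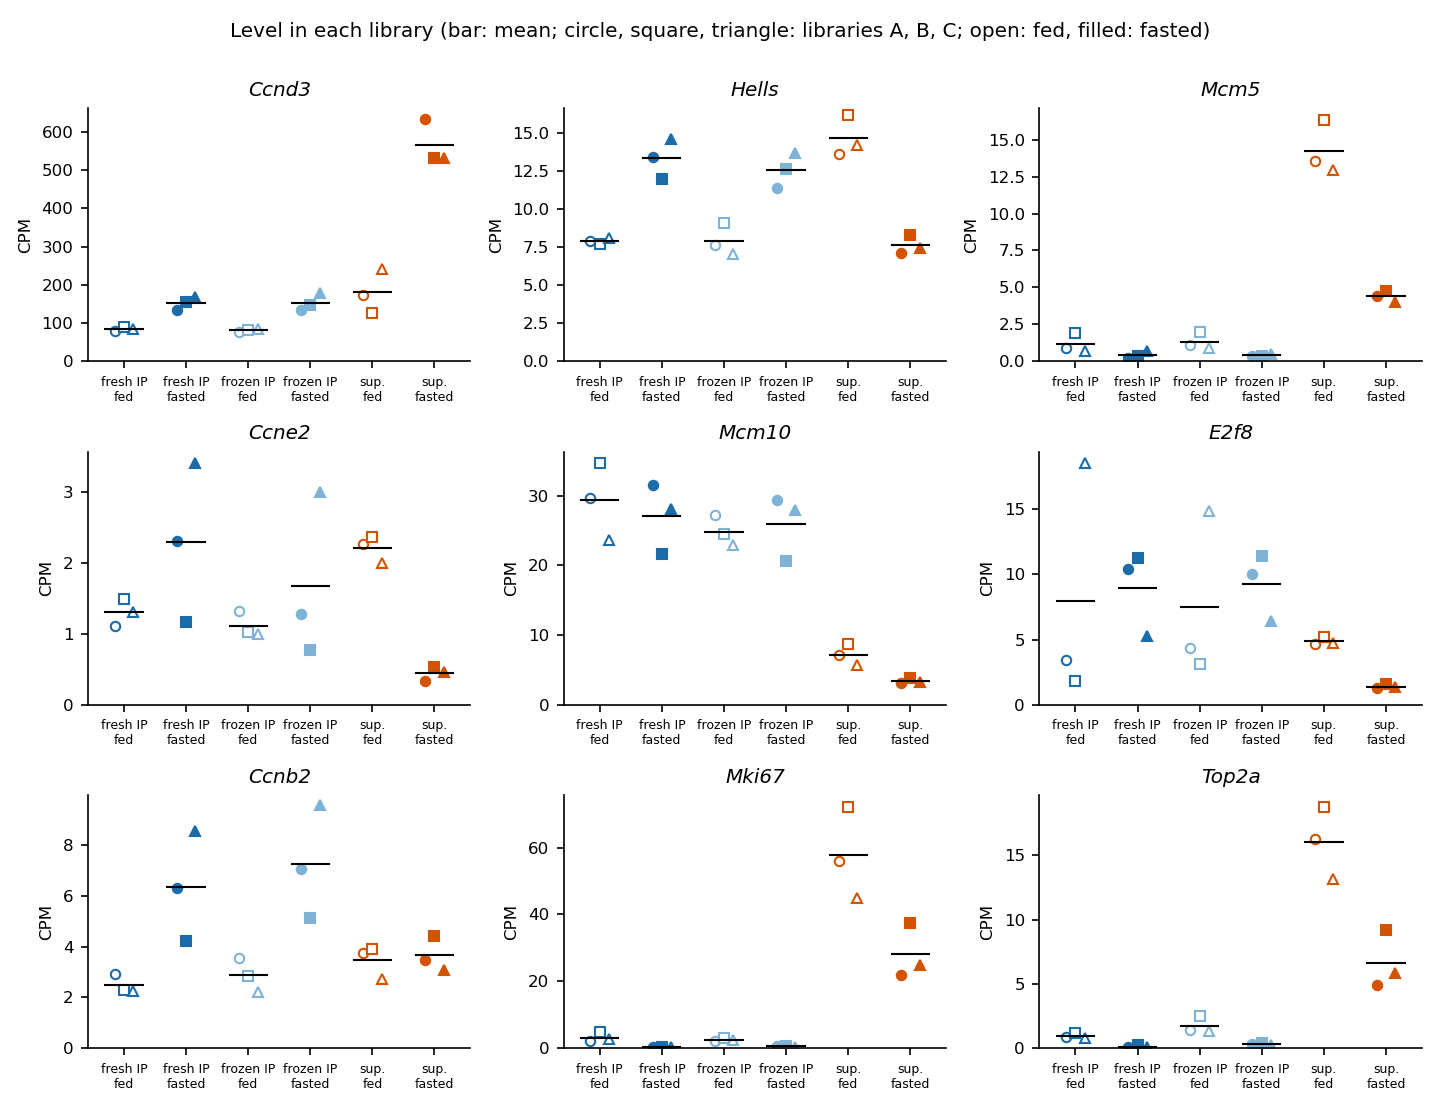
Level in CPM of 9 members in each library of supernatant, fresh IP and frozen IP, with fed mice as open and fasted mice as filled points, the column letter of the library as the shape and bars at the mean of 3. Ccnd3 was higher in every fasted library, Hells was lower in fasted supernatant and higher in fasted IP, Mcm5 was lower in fasted libraries of all 3 kinds, and Mki67 and Top2a were low in IP and lowest in fasted IP.

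Hells, a chromatin remodeller needed for DNA methylation, was the member whose fasting change was called in opposite directions in the 2 fractions. It lies at chr19:38930990-38968277, plus strand. Supernatant held Hells at 13.6, 16.2 and 14.2 CPM in fed and 7.11, 8.31 and 7.44 CPM in fasted mice. Fresh IP held Hells at 7.88, 7.74 and 8.09 CPM in fed and 13.4, 11.99 and 14.6 CPM in fasted mice. Frozen IP held Hells at 7.65, 9.07 and 7.06 CPM in fed and 11.4, 12.7 and 13.7 CPM in fasted mice. The groups were apart in all 3 kinds of library, with fasted mice below in supernatant and above in both IPs. The changes were -0.94 ± 0.10 (SE, edgeR adjusted p = 0.00857) in supernatant, 0.77 ± 0.08 (SE, edgeR adjusted p = 0.0069) in fresh IP and 0.68 ± 0.13 (SE, edgeR adjusted p = 0.0225) in frozen IP. The supernatant and fresh IP calls held when any 1 library was left out, and the frozen IP call was lost when any of 5 was left out.

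Uhrf1, which reads hemimethylated DNA behind the fork and recruits Dnmt1, had the deepest fall among replication genes in supernatant. It lies at chr17:56303337-56323486, plus strand. Supernatant held Uhrf1 at 8.34, 7.998 and 6.38 CPM in fed and 0.768, 1.47 and 1.03 CPM in fasted mice. Fresh IP held Uhrf1 at 0.236, 0.660 and 0.100 CPM in fed and 0.0275, 0.0194 and 0.0658 CPM in fasted mice. Frozen IP held Uhrf1 at 0.220, 1.03 and 0.216 CPM in fed and 0.0751, 0.124 and 0 CPM in fasted mice. The supernatant change was -2.79 ± 0.28 (SE, edgeR adjusted p = 0.00289) and held when any 1 library was left out. In fresh IP, 4 to 15 reads per library in fed mice and 1 to 2 reads in fasted mice were under the filter on low counts. Without the filter the fresh IP change was -3.02 (edgeR adjusted p = 0.0424). Uhrf1 was also under the filter in frozen IP, where without it the change of -2.545 was not called (edgeR adjusted p = 0.101).

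Rrm2 and Tyms make deoxynucleotides. Rrm2, a subunit of ribonucleotide reductase, was at 2.64, 2.55 and 1.77 CPM in fed and 0.658, 1.20 and 0.761 CPM in fasted mice in supernatant. Fresh IP held Rrm2 at 0.902, 0.792 and 0.402 CPM in fed and 0.797, 0.679 and 0.724 CPM in fasted mice. Frozen IP held Rrm2 at 0.661, 0.316 and 0.583 CPM in fed and 1.25, 0.718 and 0.847 CPM in fasted mice. Supernatant groups were apart with a change of -1.40 ± 0.31 (SE, edgeR adjusted p = 0.0342), and the fresh IP groups overlapped with a change of 0.10 ± 0.34 (SE, edgeR adjusted p = 0.862). Tyms, thymidylate synthase, was at 8.78, 9.597 and 8.18 CPM in fed and 4.94, 5.27 and 6.75 CPM in fasted mice in supernatant. Fresh IP held Tyms at 6.96, 8.93 and 8.44 CPM in fed and 5.72, 5.74 and 5.76 CPM in fasted mice. Frozen IP held Tyms at 7.05, 7.89 and 8.03 CPM in fed and 5.23, 6.29 and 5.65 CPM in fasted mice. Tyms fell in supernatant with a change of -0.64 ± 0.15 (SE, edgeR adjusted p = 0.0475), and in fresh IP its fasted libraries were also below the fed ones, with a change of -0.48 ± 0.11 (SE, edgeR adjusted p = 0.0614). Both supernatant calls were lost when any of 5 single libraries was left out. Pcna, the sliding clamp of the polymerases, was at 7.95, 8.41 and 5.78 CPM in fed and 6.98, 5.47 and 5.33 CPM in fasted mice in supernatant and at 3.74, 3.30 and 3.19 CPM in fed and 4.89, 3.05 and 4.05 CPM in fasted mice in fresh IP, and its changes of -0.31 ± 0.21 (SE, edgeR adjusted p = 0.367) and 0.24 ± 0.21 (SE, edgeR adjusted p = 0.449) were not called.

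Among the cyclins of G2 phase and mitosis, Ccnb2 rose in both IPs. Ccnb2 (chr9:70407689-70421554, minus strand) encodes cyclin B2, a partner of Cdk1. Supernatant held Ccnb2 at 3.77, 3.92 and 2.73 CPM in fed and 3.49, 4.44 and 3.09 CPM in fasted mice. Fresh IP held Ccnb2 at 2.92, 2.29 and 2.26 CPM in fed and 6.30, 4.23 and 8.55 CPM in fasted mice. Frozen IP held Ccnb2 at 3.56, 2.84 and 2.22 CPM in fed and 7.06, 5.13 and 9.58 CPM in fasted mice. Each fasted IP library was above each fed one, while the supernatant groups overlapped. The changes were 1.36 ± 0.31 (SE, edgeR adjusted p = 0.0129) in fresh IP, 1.34 ± 0.32 (SE, edgeR adjusted p = 0.016) in frozen IP and 0.09 ± 0.22 (SE, edgeR adjusted p = 0.839) in supernatant. The fresh IP call held when any 1 library was left out, and the frozen IP call was lost without fed library C or fasted library A.

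Ccna2, cyclin A2, was at 2.45, 3.04 and 2.16 CPM in fed and 1.32, 2.18 and 1.42 CPM in fasted mice in supernatant. Fresh IP held Ccna2 at 0.429, 0.440 and 0.527 CPM in fed and 0.687, 0.698 and 1.32 CPM in fasted mice. Frozen IP held Ccna2 at 0.598, 0.158 and 0.432 CPM in fed and 0.726, 0.941 and 0.899 CPM in fasted mice. Ccna2 shares 863 bases (12.1% of its span) with Exosc9, which changed by 0.06 in fresh IP, -0.02 in frozen IP and 0.06 in supernatant. Fasted libraries of Ccna2 were the higher ones in both IPs without overlap, but the changes of 0.94 ± 0.30 (SE, edgeR adjusted p = 0.0995) and 0.98 ± 0.50 (SE, edgeR adjusted p = 0.12) were not called. The supernatant change was -0.63 ± 0.26 (SE, edgeR adjusted p = 0.185), with overlapping groups. Cdk1, the mitotic kinase itself, was at 6.14, 7.48 and 4.68 CPM in fed and 3.45, 4.76 and 3.19 CPM in fasted mice in supernatant and at 0.301, 0.660 and 0.477 CPM in fed and 0.248, 0.233 and 0.197 CPM in fasted mice in fresh IP. Cdk1 changes of -0.67 ± 0.26 (SE, edgeR adjusted p = 0.119) and -0.998 ± 0.30 (SE, edgeR adjusted p = 0.119) were not called. Ccnb1, cyclin B1, was at 0.832, 1.78 and 0.719 CPM in fed and 0.614, 1.15 and 0.540 CPM in fasted mice in supernatant, where its change of -0.52 ± 0.50 (SE, edgeR adjusted p = 0.54) was not called. Fresh IP held Ccnb1 at 0.0859, 0.132 and 0.0753 CPM in fed and 0, 0.0582 and 0 CPM in fasted mice, too few reads to test.

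Of the mitotic kinases and checkpoint genes, Bub1b passed the test in fresh IP. It encodes BubR1 of the spindle checkpoint. Supernatant held Bub1b at 11.4, 11.3 and 9.05 CPM in fed and 7.24, 9.76 and 4.54 CPM in fasted mice. Fresh IP held Bub1b at 0.816, 0.528 and 1.08 CPM in fed and 0.220, 0.330 and 0.0987 CPM in fasted mice, from 3 to 43 reads per library. Frozen IP held Bub1b at 0.567, 0.631 and 0.798 CPM in fed and 0.401, 0.248 and 0.128 CPM in fasted mice. All fasted IP libraries were below the fed ones, and supernatant groups overlapped. The changes were -1.83 ± 0.48 (SE, edgeR adjusted p = 0.0277) in fresh IP, -1.37 ± 0.41 (SE, edgeR adjusted p = 0.0629) in frozen IP and -0.55 ± 0.34 (SE, edgeR adjusted p = 0.26) in supernatant, and the fresh IP call was lost when any of 4 single libraries was left out.

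Bub1, the partner kinase of the checkpoint, was at 3.40, 5.52 and 3.54 CPM in fed and 1.05, 2.92 and 1.30 CPM in fasted mice in supernatant, with a change of -1.23 ± 0.49 (SE, edgeR adjusted p = 0.111). Aurkb, the kinase of the chromosomal passenger complex, was at 3.33, 3.28 and 2.85 CPM in fed and 1.19, 2.55 and 0.982 CPM in fasted mice in supernatant, with a change of -0.99 ± 0.41 (SE, edgeR adjusted p = 0.136). Fresh IP held Aurkb at 0.0859, 0.176 and 0.176 CPM in fed and 0, 0 and 0 CPM in fasted mice. With 0 reads in the 3 fasted libraries and a floor of 3 reads over the group (0.0254 CPM), Aurkb was at least 5.75-fold lower in fasted than in fed fresh IP, from 4 to 7 reads per fed library. This bound takes the fed mean as exact. Aurkb was under the filter on low counts in both IPs. Without the filter its fall passed the test in fresh IP (edgeR adjusted p = 0.0242). In frozen IP of the same mice the change of -2.19 did not (edgeR adjusted p = 0.127). Plk1, a kinase of mitotic entry, was at 1.81, 2.76 and 1.77 CPM in fed and 2.39, 2.52 and 2.18 CPM in fasted mice in supernatant and at 0.1503, 0.396 and 0.301 CPM in fed and 0.468, 0.563 and 0.329 CPM in fasted mice in fresh IP. Plk1 changes of 0.17 ± 0.21 (SE, edgeR adjusted p = 0.696) and 0.79 ± 0.39 (SE, edgeR adjusted p = 0.234) were not called, and neither was any change of Aurka, the spindle pole kinase, whose fasting changes were -0.54 in supernatant, -0.63 in fresh IP and -0.25 in frozen IP.

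Among the members with enough counts to test, the steepest falls in the IP libraries were those of Mki67 and Top2a. Whether they took place in hepatocyte nuclei or in carried-over nuclei of other cells was not tested. Mki67 (chr7:135689788-135716379, minus strand) encodes the proliferation antigen Ki-67, which coats mitotic chromosomes. Supernatant held Mki67 at 56.1, 72.0 and 45.0 CPM in fed and 21.9, 37.5 and 24.9 CPM in fasted mice. Fresh IP held Mki67 at 2.08, 4.79 and 2.74 CPM in fed and 0.412, 0.427 and 0.395 CPM in fasted mice. Frozen IP held Mki67 at 2.05, 3.16 and 2.503 CPM in fed and 0.701, 0.595 and 0.385 CPM in fasted mice. Fasted values were below fed values without overlap in every kind of library. The changes were -1.03 ± 0.30 (SE, edgeR adjusted p = 0.0464) in supernatant, -2.91 ± 0.35 (SE, edgeR adjusted p = 0.00251) in fresh IP and -2.17 ± 0.29 (SE, edgeR adjusted p = 0.0044) in frozen IP. The IP calls held when any 1 library was left out, and the supernatant call was lost when any of 5 was left out.

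Top2a (chr11:98992947-99024189, minus strand) encodes topoisomerase II alpha, which untangles sister chromatids. Supernatant held Top2a at 16.3, 18.7 and 13.2 CPM in fed and 4.92, 9.19 and 5.87 CPM in fasted mice. Fresh IP held Top2a at 0.880, 1.19 and 0.829 CPM in fed and 0.0825, 0.233 and 0.0987 CPM in fasted mice. Frozen IP held Top2a at 1.38, 2.52 and 1.34 CPM in fed and 0.326, 0.396 and 0.257 CPM in fasted mice. Again no fasted library reached a fed one. The changes were -1.26 ± 0.30 (SE, edgeR adjusted p = 0.0283), -2.66 ± 0.37 (SE, edgeR adjusted p = 0.00608) and -2.36 ± 0.33 (SE, edgeR adjusted p = 0.00582) in supernatant, fresh IP and frozen IP, and without fasted library B the fresh IP change was -3.33. The IP calls held when any 1 library was left out, and the supernatant call was lost when any of 5 was left out.

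Cenpe, a kinetochore kinesin, was at 15.7, 18.8 and 13.3 CPM in fed and 6.87, 12.2 and 7.14 CPM in fasted mice in supernatant. Fresh IP held Cenpe at 0.708, 0.792 and 1.31 CPM in fed and 0.110, 0.194 and 0.296 CPM in fasted mice. Frozen IP held Cenpe at 0.504, 1.499 and 1.19 CPM in fed and 0.275, 0.421 and 0.360 CPM in fasted mice. Fasted libraries were below fed ones in each kind. The changes were -2.23 ± 0.41 (SE, edgeR adjusted p = 0.0126) in fresh IP and -1.53 ± 0.47 (SE, edgeR adjusted p = 0.045) in frozen IP, and -0.86 ± 0.30 (SE, edgeR adjusted p = 0.0785) in supernatant did not pass. The fresh IP call was lost without fasted library A and the frozen IP call when any of 5 single libraries or the filter on low counts was left out.

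Cenpf, another kinetochore protein, was at 5.84, 8.95 and 6.62 CPM in fed and 3.51, 5.52 and 4.15 CPM in fasted mice in supernatant. Fresh IP held Cenpf at 0.472, 0.924 and 0.703 CPM in fed and 0.0550, 0.252 and 0.0658 CPM in fasted mice. Frozen IP held Cenpf at 0.409, 0.473 and 0.561 CPM in fed and 0.175, 0.347 and 0 CPM in fasted mice. The fresh IP change of -2.28 ± 0.54 (SE, edgeR adjusted p = 0.0262) passed the test, -1.45 ± 0.88 (SE, edgeR adjusted p = 0.203) in frozen IP and -0.69 ± 0.26 (SE, edgeR adjusted p = 0.112) in supernatant did not, and no fasted library of the 3 kinds reached the lowest fed one. The fresh IP call was lost when any of 4 single libraries was left out, and the change was -3.42 without fasted library B.

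Ncapd2, a condensin subunit, had no called change with fasting. It was at 108, 124 and 106 CPM in fed and 109, 102 and 80.7 CPM in fasted mice in supernatant and at 47.4, 74.9 and 43.3 CPM in fed and 51.4, 45.6 and 59.6 CPM in fasted mice in fresh IP. Its changes were -0.20 ± 0.15 (SE, edgeR adjusted p = 0.423) and -0.06 ± 0.27 (SE, edgeR adjusted p = 0.857). Ncapd2 holds the small RNA gene Scarna10 on the same strand. Kif23, a kinesin of the central spindle, was at 66.0, 63.9 and 30.5 CPM in fed and 27.9, 55.4 and 41.5 CPM in fasted mice in supernatant and at 0.193, 0.484 and 0.201 CPM in fed and 0.0275, 0.0582 and 0.0987 CPM in fasted mice in fresh IP, and its supernatant change was -0.35 ± 0.46 (SE, edgeR adjusted p = 0.587). Kif11, the kinesin that pushes spindle poles apart, was at 11.3, 14.7 and 7.76 CPM in fed and 3.97, 8.82 and 4.001 CPM in fasted mice in supernatant and at 2.06, 1.19 and 1.81 CPM in fed and 1.04, 1.03 and 1.78 CPM in fasted mice in fresh IP, with uncalled changes of -0.99 ± 0.46 (SE, edgeR adjusted p = 0.146) and -0.40 ± 0.34 (SE, edgeR adjusted p = 0.399). Kif20a, a kinesin of cytokinesis, changed by -0.97, -0.32 and -0.72 in supernatant, fresh IP and frozen IP, none of them called.

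The comparison of fresh IP with supernatant, averaged over fed and fasted mice, asked in which nuclei these RNAs were found. Most members had a lower level in IP, with 33 of 41 lower and 3 higher, against 43.0% lower and 42.0% higher of 14322 genes. The 33 include Ccne1, Uhrf1, Ccnb1, Bub1, Aurkb and Kif23, which were too low to test in fresh IP alone. They entered this fit only through supernatant, where they were high, so their direction was largely set by the filter. Of the replication genes 17 were lower and 3 higher, with a median log2 difference of -1.70. Of the mitotic genes 16 were lower and none higher, with a median of -4.20, and the median of all genes was -0.00. The 36 calls held in all 12 fits that left out 1 library.

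Mcm10, E2f8 and Ccne2 were the members higher in IP in this average over fed and fasted mice. The IP minus supernatant difference of Mcm10 was 2.46 ± 0.15 (SE, edgeR adjusted p = 3.61e-09). E2f8 differed by 1.67 ± 0.53 (SE, edgeR adjusted p = 0.00513), and by 0.87 without fed fresh IP library C, where its level was 18.5 CPM. Ccne2 differed by 0.73 ± 0.25 (SE, edgeR adjusted p = 0.0129), but its fresh IP level was 58.9% of that in supernatant in fed mice and 516% in fasted mice. The members that did not differ by the test were Ccnd1 at 0.15, Mcm7 at 0.06, Tyms at -0.10, Hells at -0.09 and Ccnb2 at 0.10. Mean levels of Hells, Ccnb2, Mcm7 and Tyms were lower in IP in fed mice and higher in IP in fasted mice. For these the average joins opposite differences.

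At the other end stood mitotic genes that IP nearly lacked. Kif23 (chr9:61917278-61946799, minus strand) differed by -8.56 ± 0.32 (SE, edgeR adjusted p = 1.92e-10), after entering the fit only through supernatant. Its fresh IP level was 0.548% in fed and 0.148% in fasted mice of that in supernatant. Mki67 differed by -5.19 ± 0.23 (SE, edgeR adjusted p = 6.26e-10), at 5.55% in fed and 1.46% in fasted mice of supernatant. Top2a was at 6.02% in fed and 2.07% in fasted mice, Cenpe at 5.86% in fed and 2.29% in fasted mice and Bub1b at 7.63% in fed and 3.01% in fasted mice. These shares can be set beside marker genes of cells that the IP should leave behind. The median fresh IP share was 3.98% in fed and 1.75% in fasted mice over 14 endothelial markers, 7.14% and 5.47% over 12 stellate markers, 0.733% and 0.426% over 12 lymphocyte markers, and 0.251% and 0.230% over 12 Kupffer cell markers. Not all markers of other cells were low in IP, since 8 cholangiocyte markers had a median share of 258% and 152%, with Krt7 at 10.8% in fed mice, and the erythroid marker Klf1 stood at 3857% in fed mice. The IP shares of Mki67, Top2a and Cenpe lay within the span of the medians of the endothelial, stellate, lymphocyte and Kupffer cell lists in fed and in fasted mice. Bub1b lay above that span in fed mice and Kif23 below it in fasted mice. Other mitotic members were far above it in fed mice, such as Kif11 at 15.0%, Aurka at 26.3% and Ncapd2 at 49.1%. How much of the mitotic RNA in IP came from carried-over nuclei was not tested.

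**Figure D3:**
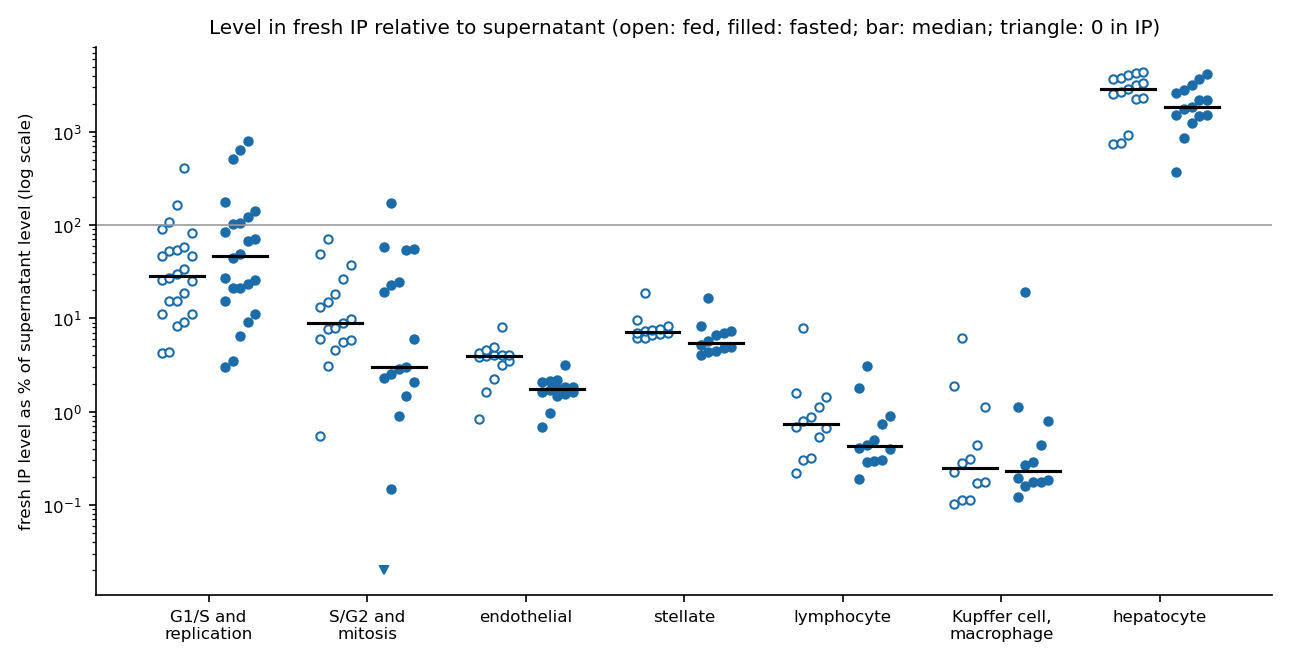
Fresh IP level as a percent of the supernatant level on a log axis, for replication members, mitotic members and 5 lists of cell type markers, with fed mice as open and fasted mice as filled points, 1 point per gene and bars at the median. Mitotic members reach down to the shares of endothelial, stellate and lymphocyte markers, Mcm10, E2f8 and Ccne2 lie above 100% in fasted mice, and a triangle marks Aurkb at 0 in fasted IP.

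Other members held a large share in IP. Hells in fresh IP was at 53.8% in fed and 175% in fasted mice of supernatant and Ccnb2 at 71.7% in fed and 173% in fasted mice. Mcm10 was at 410.1% in fed and 799% in fasted mice, E2f8 at 163% in fed and 643% in fasted mice and Ccne2 at 58.9% in fed and 516% in fasted mice. Ccnd3 went the other way, at 46.5% in fed and 26.9% in fasted mice.

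Whether fasting changed a member differently in fresh IP and in supernatant was tested by an interaction term, and 8 of the 41 members passed. In 7 of them, 6 replication genes and Ccna2, the IP change was the higher one, and in Mki67 it was the lower one, against 3.71% higher and 5.83% lower of 14322 genes. Both fractions came from the same mice. The median difference over all members without the filter was 0.31 for replication genes and -1.28 for mitotic genes, with -0.08 over all genes. The mitotic value was that of Ccnb1, which was too low to test in fresh IP alone. Aurkb, Kif23 and Bub1, also too low to test there, stood at -4.47, -1.77 and -1.51. The mitotic median thus rests on genes near the floor in fresh IP.

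Hells had the smallest p-value, with a difference of 1.65 ± 0.13 (SE, edgeR adjusted p = 0.000417), and Ccne2 the largest difference, 3.07 ± 0.50 (SE, edgeR adjusted p = 0.00342). Both calls held in all 12 fits that left out 1 library and with the mouse as a block. Mcm6 differed by 0.94 ± 0.22 (SE, edgeR adjusted p = 0.0172), lost without fasted supernatant library A. Cdc6 differed by 2.04 ± 0.55 (SE, edgeR adjusted p = 0.0357), with 8 to 33 reads per fresh IP library, and Cdc45 by 0.95 ± 0.24 (SE, edgeR adjusted p = 0.0445). The Cdc6 call was lost when any of 9 libraries was left out and the Cdc45 call when any of 10 was. The calls of Mcm6, Cdc6 and Cdc45 were also lost when all 18 libraries shared 1 fit. Ccne1 was too low to test in fresh IP alone, at 2 to 10 reads per fed and 5 to 19 per fasted library. It entered this fit only through supernatant, at 53 to 65 reads per fed library, so its call carries little weight. Ccne1 differed by 2.53 ± 0.64 (SE, edgeR adjusted p = 0.0291) and Ccna2 by 1.501 ± 0.40 (SE, edgeR adjusted p = 0.0491). When the mouse was a block neither passed (edgeR adjusted p of 0.0566 and 0.0844), and the Ccna2 call was also lost with RLE factors and without the filter. Mki67 differed by -1.91 ± 0.46 (SE, edgeR adjusted p = 0.0275), lost when any of 4 single libraries was left out.

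**Figure D4:**
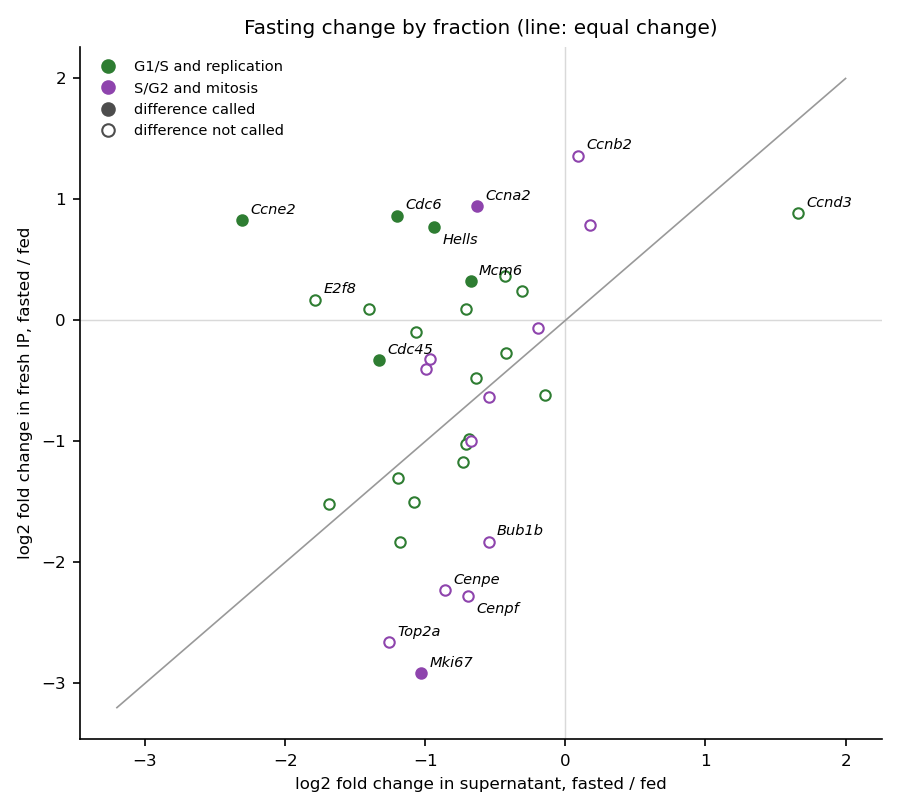
Log2 fold change with fasting in supernatant (horizontal axis) against that in fresh IP (vertical axis) for each member tested in fresh IP. The line marks equal change, and points are filled where the difference of the 2 changes had an adjusted p under 0.05. Members too low to test in fresh IP have no point, among them Ccne1, whose difference was called. Hells and Ccne2 lie far above the line, with a fall in supernatant and a positive value in fresh IP, and Mki67 lies below it.

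Other members came near the threshold. Ccnb2 differed by 1.20 ± 0.38 (SE, edgeR adjusted p = 0.0511) and Mcm10 by 0.91 ± 0.31 (SE, edgeR adjusted p = 0.0528). Top2a differed by -1.40 ± 0.48 (SE, edgeR adjusted p = 0.105) and Cenpe by -1.43 ± 0.51 (SE, edgeR adjusted p = 0.105). A block by mouse brought the differences of Mcm10 (0.90), Cenpf (-1.71) and Top2a (-1.51) past the threshold, with adjusted p-values of 0.0421, 0.0467 and 0.0202 from edgeR. The difference of Ccnd2 was -0.47 ± 0.45 (SE, edgeR adjusted p = 0.47), and that of E2f8 was 1.91 ± 1.05 (SE, edgeR adjusted p = 0.218).

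Few members differed between frozen and fresh IP of the same mice. Of 37 members tested, 1 was higher and 1 lower in frozen IP, against 4.72% higher and 0.441% lower of 13162 genes. Kif23 was higher in frozen IP by 1.69 ± 0.33 (SE, edgeR adjusted p = 0.0359) and Ncapd2 was lower there, with a difference of -0.75 ± 0.15 (SE, edgeR adjusted p = 0.00813). Kif23 was too low to test in fresh IP alone and entered this fit only through frozen IP, where it was higher. It had 8 to 11 reads per fed and 1 to 3 per fasted fresh IP library, against 14 to 23 and 7 to 16 in frozen IP. The Kif23 call was lost when any of 9 single libraries was left out and when all 18 libraries shared 1 fit, and the Ncapd2 call held in all 12 such fits. In the same comparison 13 of 14 endothelial markers, 8 of 12 Kupffer cell markers and 5 of 9 lymphocyte markers were higher in frozen IP, and their part in the difference of Kif23 was not tested. With the mouse as a block Ccnd2 (0.72) and Top2a (1.02) were also higher in frozen IP. The fasting change differed between frozen and fresh IP in 0% of the genes tested by edgeR, members included, with 43 genes at an unadjusted p under 0.05 and 0 calls by DESeq2.

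Further genes of the same pathways were counted from lists. Of 48 other genes of origins, polymerases and forks, 0 rose and 21 fell in supernatant, 1 rose and 14 of 43 tested fell in fresh IP, and 0 rose and 10 of 44 fell in frozen IP. The shares falling among all genes were 2.84%, 12.6% and 11.6%. Those with the lowest p-values in fresh IP were Tk1, thymidine kinase, at -2.97 ± 0.51 (SE, edgeR adjusted p = 0.00282), Pole, a subunit of DNA polymerase epsilon, at -1.85 ± 0.34, and Rpa1, which coats single-stranded DNA, at -1.04 ± 0.19. Tk1 went from 58.4 ± 30.0 to 7.32 ± 2.43 CPM (SD, n = 3) in fresh IP, and its span shares 96 bases (0.915%) with Afmid, which itself changed by -1.32 there. Orc4, a subunit of the origin recognition complex, rose by 0.39 ± 0.05. In supernatant Chaf1a, a histone chaperone of the fork, fell by 1.36 on the log2 scale, and Dnmt1, the maintenance DNA methyltransferase, fell by 0.78. Prim2, a primase subunit, fell there by 0.68.

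Of 54 other genes of mitosis and cytokinesis, 0 rose and 9 fell in supernatant, 2 rose and 17 of 40 tested fell in fresh IP, and 3 rose and 9 of 39 fell in frozen IP, against the same 2.84%, 12.6% and 11.6% of all genes falling. The genes that rose were few beside the 12.4% and 11.0% of all genes that rose in fresh and frozen IP. Their medians were -0.87, -0.79 and -0.77. Gtse1, a spindle and p53 regulator, rose in fresh IP by 2.39 ± 0.39 (SE, edgeR adjusted p = 0.00319), from 1.60 ± 0.44 to 8.39 ± 3.16 CPM (SD, n = 3). Anln, the cytokinesis scaffold anillin, rose by 2.19 ± 0.54 in fresh IP and by 2.64 ± 0.63 in frozen IP, and Spc25, of the outer kinetochore, rose by 1.25 ± 0.27 in frozen IP. Among those that fell in fresh IP were Kif2c at -2.32, Birc5 (survivin) at -2.05 and Cdca8 (borealin) at -1.96. In frozen IP Ttk fell by 3.24 and Tpx2 by 2.15 on the log2 scale, and in supernatant Kntc1 fell by 2.43.

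Of 25 regulators of the E2F, RB and DREAM system, 0 rose and 2 fell in supernatant, 2 rose in fresh IP with none falling, and 4 rose and 1 fell in frozen IP. With 12.4% and 11.0% of all genes rising in the IPs, the list was not richer in rising genes than the whole in fresh IP. In frozen IP its 4 rising genes were a larger share than 11.0%. Of all genes, 2.84% fell in supernatant, 12.6% in fresh IP and 11.6% in frozen IP. Ccnf, cyclin F, rose in fresh IP by 1.26 ± 0.33 (SE, edgeR adjusted p = 0.0104), from 11.2 ± 3.89 to 26.4 ± 1.67 CPM (SD, n = 3). Cdk4, the kinase partner of the D cyclins, rose by 0.46 in fresh IP and 0.64 in frozen IP. Tfdp1, the DNA-binding partner of E2F factors, rose by 0.46 in frozen IP and fell by 0.33 in supernatant. Of 7 CDK inhibitors only Cdkn1a, which encodes p21, was called in a fasting comparison, among the 3 tested in each IP and the 6 tested in supernatant. It rose by 4.54 ± 0.72 (SE, edgeR adjusted p = 0.00167) in fresh IP, from 1.57 ± 0.90 to 35.6 ± 14.3 CPM, by 4.36 ± 0.66 in frozen IP and by 1.45 ± 0.33 in supernatant.

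Histone genes, whose RNAs rise in S phase and mostly lack poly-A tails, were measured here without poly-A selection. Of 62 in the table, 23 were tested in fresh IP, 20 in frozen IP and 29 in supernatant, with 2, 3 and 0 falling and none rising, against 12.6%, 11.6% and 2.84% of all genes falling, so that these counts are near those of all genes. Their medians were -0.66, -0.43 and -0.40. Hist2h2be fell by 1.16 in fresh IP and by 1.54 in frozen IP on the log2 scale. Reads of near-identical histone genes may be split or lost in counting, so single histone values are uncertain.

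The authors' deposited table of their own fasting comparisons gave an adjusted p for all 41 members. In that deposited table of the authors, 3 members were higher and 16 lower in fresh IP, and 3 higher and 18 lower in frozen IP. All 10 members called here in fresh IP and all 12 in frozen IP were called in the authors' deposited table in the same direction.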

How the data were processed

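Nuclear RNA was sequenced from 18 libraries of 6 mice. Per the labels' protocols, RNA was purified from nuclei with DNase digestion, and libraries were made with a stranded kit and no selection of poly-A RNA, so unspliced RNA was counted as well. The submitters' processing notes name STAR 2.4.2a, DESeq2 1.24.0 and mm10 without their roles. The counting tool and its strand setting are not given in the sources used here. Overlapping genes on opposite strands are therefore uncertain. Of the 41 members, 24 overlap no other annotated gene and 4 overlap another gene of the count table.

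The authors deposited raw counts per gene, and the length in their table equals end minus start in all 20105 genes. They also deposited normalized counts (a signal in linear units), of which 100% of 241260 values came out as whole reads equal to the counts within a tolerance of 0.01 reads, so the counts were used. The authors' deposited table of log2 fold changes and adjusted p-values is cited only where it is named. A further 6 count columns match no sample and were not used. The lowest chi-square per gene between libraries of a group was 16.1, and no 2 libraries were treated as copies.

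Each of 7 comparisons was fitted to the counts of its own groups with edgeR 4.0.16 in R 4.3.3 (TMM scaling, filterByExpr, quasi-likelihood test), with Benjamini-Hochberg adjusted p under 0.05 over all genes tested. CPM were scaled over all 18 libraries. The SE is from group variances of log2 CPM (prior count 2) and takes libraries as independent. Columns carry letters that no label explains, so they were assigned to groups only. Libraries with the same letter in a feeding state deviated together, at correlations of 0.555 to 0.902 between fresh and frozen IP and 0.152 to 0.437 between fresh IP and supernatant, against -0.586 to 0.010 for different letters over all fractions, so the letter served as the mouse in a fit with a replicate block. Other alternatives were DESeq2 1.42.0, RLE factors, no filter, all 18 libraries in 1 fit and leaving out each library. The scripts were tested on simulated data.

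The members and gene lists were chosen with earlier results of these data known. Values are given for every member called in a fasting comparison or in the difference between fractions and for those higher in IP, for up to 3 other members per subgroup with the highest supernatant level, and for up to 3 called genes per direction, by p-value, in the other lists. The remaining members are given by their changes. Members for printed promoters were chosen after their values were seen.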

Additional observations from a re-analysis of the deposited data

Results flagged for a closer look

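The fasting change of 8 members differed between fresh IP and supernatant of the same mice by a test of the difference itself (an interaction term in edgeR). The value given is the log2 change in IP minus that in supernatant. It was 3.07 for Ccne2, 2.53 for Ccne1 and 2.04 for Cdc6. It was 1.65 for Hells, 1.501 for Ccna2, 0.95 for Cdc45 and 0.94 for Mcm6. For Mki67 it was -1.91. Ccne1 and Cdc6 had no more than 19 and 33 reads in any fresh IP library. Ccne1 was too low to test in fresh IP alone and entered this test only through supernatant. Summed lymphocyte markers in supernatant were 2953 to 4009 CPM in fed and 2221 to 2552 CPM in fasted mice, and their part in these differences was not tested.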

How the results depend on the processing

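No member called in a comparison changed direction in that comparison under any alternative that was run, while some members close to 0 and not called, such as E2f8 in frozen minus fresh IP, did change sign. With DESeq2 in place of edgeR, 7 replication genes fell in fresh IP in place of 2, 7 mitotic genes fell in supernatant in place of 2, and 11 members were higher and 6 lower in the IP response against 7 and 1. With all 18 libraries in 1 fit, 8 replication genes fell in fresh IP, 10 in frozen IP in place of 6, and 0 members were higher in frozen than in fresh IP in place of 1. DESeq2 gave 2 there. With the mouse as a replicate block, 3 members were higher in frozen IP, 3 were lower in the IP response in place of 1, and Ccne1 and Ccna2 lost their calls in that response. The block changed no other call from significant to not significant. The cause of these shifts was not tested.

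Leaving out 1 library in turn gave these ranges. In fresh IP, 2 to 3 replication genes rose and 1 to 3 fell, and 1 to 1 mitotic genes rose and 2 to 5 fell, with the lowest counts of falls without fasted library A. In frozen IP, 1 to 2 replication genes rose and 1 to 5 fell, and 0 to 1 mitotic genes rose and 2 to 3 fell, with 1 falling replication gene without fasted library A. In supernatant, 1 to 1 replication genes rose and 8 to 15 fell, with 8 without fasted library A, and 0 to 0 mitotic genes rose and 0 to 6 fell, with 6 without fasted library B and 0 in the 5 other fits. IP minus supernatant kept 3 to 3 higher and 33 to 33 lower members. The IP response gave 2 to 7 higher, with 2 without fasted supernatant library A, and 0 to 3 lower. Frozen minus fresh IP gave 0 to 1 higher and 1 to 1 lower.

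Over all genes, calls went from 866 with edgeR to 1881 with DESeq2 in supernatant, from 1367 to 2326 in the IP response, and from 679 to 2168 with the block in frozen minus fresh IP. Without 1 library they went from 3145 to 1429 to 2643 in fresh IP, from 2918 to 1168 to 2271 in frozen IP, and from 866 to 197 to 624 in supernatant. Leaving out 1 library gave 771 to 1485 calls in the IP response and 409 to 711 in frozen minus fresh IP. In each IP 6 members had too few reads to pass the filter.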
